A study of Mus musculus with 6 samples.

Results

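Of the 41945 genes and loci in the deposited table, 8 are described here: Meis1, Meis2, Meis3, Pbx2, Pbx3, Pbx4, Pknox1 and Pknox2, which encode homeodomain cofactors of the Hox proteins. They were picked by name, and the row of each was found by splitting the symbols of every row at commas. All 8 have 1 row, and all 8 are above 1 FPKM in both genotypes, FPKM being the count of sequenced fragments scaled to the length of the exons and to the size of the library. The cells, which the study calls motor neurons (MNs), a name kept here, were differentiated from 2 mouse ESC lines of FVB/N background. The 2 lines carry eGFP under the Hb9 promoter and, by the study's methods, the homozygous human SMN2 transgene (SMN2+/+). Hb9 control cells, labelled wildtype, keep mouse Smn and A2 SMA cells lack it (SMN2+/+;mSmn-/-). Both lines were taken through embryoid bodies and 5 days of 1 µM retinoic acid (RA) and 1 µM Smoothened agonist before GFP-positive cells were sorted. RNA of 3 samples per genotype was sequenced, and the table holds 1 pooled FPKM value per genotype. Each genotype is 1 ESC line, so genotype and line cannot be told apart, and no value of a single sample, SD or test stands behind the numbers below. The comparison between the genotypes is therefore a comparison of 1 pooled value with another, and the table does not give the number of reads behind each.

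MEIS, PBX and PKNOX proteins belong to the TALE class of homeodomain proteins, which have a loop of extra amino acids between the first and second helix of the homeodomain. PBX proteins bind DNA together with Hox proteins and sharpen the choice of site, MEIS and PKNOX proteins bind PBX and help to keep it in the nucleus, and MEIS proteins can join Hox and PBX on DNA as a further partner. In the hindbrain and spinal cord these complexes take part in patterning by Hox genes and in setting up MN subtypes, and several of the genes respond to RA.

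The stretch of the homeobox that encodes the loop is shown for all 8 genes because it is what joins them into a class and what separates the families. The sequences run 5′ to 3′ on the coding strand of the GENCODE M21 basic transcript with the longest coding sequence, and the 9 bases in capitals encode the proline, tyrosine and proline of the loop.
Meis1: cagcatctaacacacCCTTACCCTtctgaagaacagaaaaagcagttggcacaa
Meis2: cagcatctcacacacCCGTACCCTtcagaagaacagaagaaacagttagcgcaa
Meis3: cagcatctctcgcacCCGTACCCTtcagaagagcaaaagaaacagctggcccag
Pbx2: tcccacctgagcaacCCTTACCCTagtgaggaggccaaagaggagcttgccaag
Pbx3: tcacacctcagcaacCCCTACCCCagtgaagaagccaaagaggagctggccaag
Pbx4: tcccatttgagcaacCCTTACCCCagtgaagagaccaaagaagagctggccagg
Pknox1: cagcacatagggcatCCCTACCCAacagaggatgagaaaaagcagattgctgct
Pknox2: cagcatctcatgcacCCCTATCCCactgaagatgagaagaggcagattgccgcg

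Over the 189 bases of the homeobox, the 3 Meis genes shared 82.0% to 84.7% of bases with each other, the 3 Pbx genes 79.4% to 82.5%, and Pknox1 and Pknox2 78.3%. Between families, Meis and Pknox genes shared 65.1% to 71.4%, Meis and Pbx genes 44.4% to 53.4%, and Pbx and Pknox genes 46.6% to 52.4%. In the Pbx genes the 54 bases shown lie within 1 exon, exon 5, at chr17:34594640-34594693 on the + strand for Pbx2, chr2:34204804-34204857 on the − strand for Pbx3 and chr8:69866526-69866579 on the + strand for Pbx4, all in GRCm38. In the Meis and Pknox genes they cross a splice junction, which joins exons 8 and 9 in Meis1, Meis2, Meis3 and Pknox1 and exons 10 and 11 in Pknox2. With the intron between, they run over chr11:18905724-18941670 (− strand), chr2:115921707-116000142 (− strand), chr7:16182457-16183832 (+ strand), chr17:31599632-31602827 (+ strand) and chr9:36895346-36909640 (− strand) of the same build.

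Before the cofactors, the genotype and the cell type were read from the same table. Smn1, the mouse gene deleted in A2, had 137 FPKM in the Hb9 control and 5.26 FPKM in A2 SMA. Mnx1, which encodes Hb9 and whose promoter, in a transgene, drives the sorted eGFP reporter, was at 41.2 and 44.2 FPKM. Of the 6 MN markers that passed the filter of 1 FPKM, the other 5 were at least 2-fold lower in A2 SMA MNs, with Isl1 at 108 and 5.95 FPKM and Lhx3, near 0 in A2, at 27.6 and 0.348 FPKM. The summed level of the 7 MN markers in the table was 216 FPKM in the control, single genes ranging from 0.387 to 108 FPKM, and 52.5 FPKM in A2 SMA MNs, ranging from 0.0900 to 44.2 FPKM. All 9 pan-neuronal markers in the table were at least 2-fold lower in A2 SMA MNs (summed level 1475 against 151 FPKM, single genes at 11.5 to 359 against 0.784 to 78.0 FPKM), and all 10 markers of pluripotent cells were at least 2-fold higher (306 against 1956 FPKM, single genes at 2.76 to 98.3 against 9.92 to 775 FPKM). Of 8 fibroblast markers, for the feeder layer, 5 were at least 2-fold lower, 2 relative to the median gene, and 1 was higher (68.8 against 35.6 FPKM, single genes at 0.970 to 20.1 against 0.326 to 9.41 FPKM). No gene of these lists was listed at 0. The part of these markers in the cofactor values was not tested, and in sorted bulk cells fewer cells of a type and less RNA per cell cannot be told apart.

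Meis1, Meis2, Meis3, Pbx3, Pbx4 and Pknox2, 6 of the 8 genes, were at least 2-fold lower in A2 SMA MNs by their pooled FPKM values, and none was at least 2-fold higher. Over the 14926 genes with a symbol that reached 1 FPKM in either genotype and were above 0 in both, 22.4% were at least 2-fold lower and 6.83% at least 2-fold higher. The log2 ratios of the 8 genes, A2 SMA over Hb9 control, ran from -3.23 to -0.25 with a median of -2.01. The median over all 14926 genes was -0.29 (quartiles -0.89 and 0.19). Taken against that median gene, 5 of the 8 were at least 2-fold lower, Pbx4 being the one that left the count, and 16.5% of all genes were lower and 10.4% higher by that measure. Of the genes past 2-fold, 23.4% were higher on the deposited scale and 38.8% relative to the median gene.

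**Figure D1:**
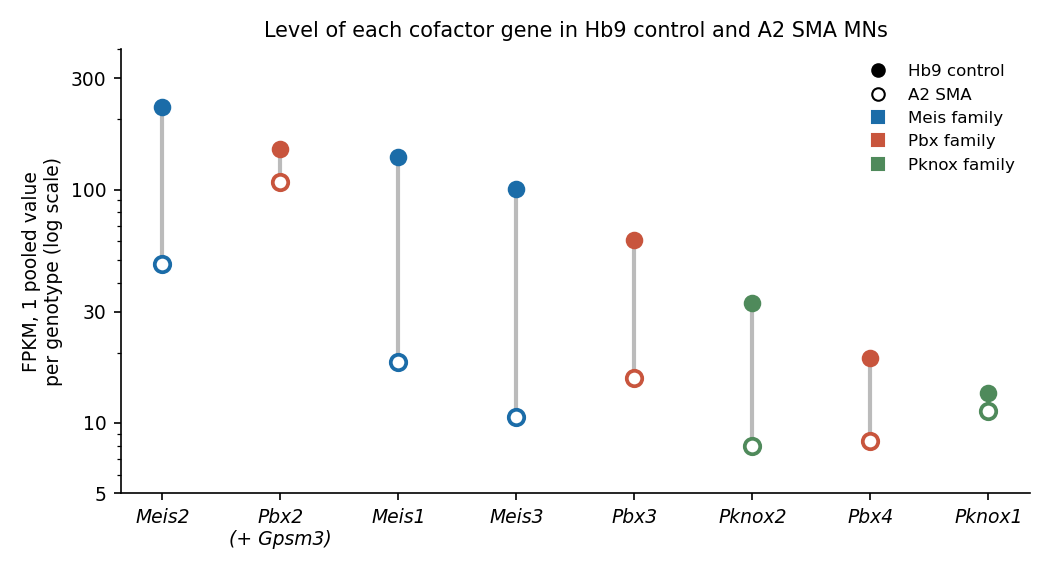
Pooled FPKM (log axis) of each cofactor gene in Hb9 control MNs (filled points) and A2 SMA MNs (open points), with 1 value per genotype and therefore no error bars. The 3 Meis genes lie between 100.2 and 226 FPKM in Hb9 control MNs and between 10.7 and 47.9 FPKM in A2 SMA MNs, while Pbx2 and Pknox1 show short lines.

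Meis1 encodes a partner of PBX and Hox proteins that is best known from haematopoietic stem cells and from limb and neural patterning. It lies on chromosome 11 between 18780433 and 18921184 of NCBI m37, the build of all loci below, with 138 FPKM in the control and 18.2 FPKM in A2 SMA MNs. The A2 value is 13.2% of the control value, a 7.59-fold difference (log2 ratio -2.92), or 6.21-fold relative to the median gene. In Hb9 control MNs 94.7% of the 14926 genes were at a lower FPKM than Meis1, and in A2 SMA MNs 58.1% were.

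Meis2, an RA-responsive paralog, lies on chromosome 2 between 115688800 and 115891575. It was the most abundant of the 8 in Hb9 control MNs, at 226 FPKM, and had 47.9 FPKM in A2 SMA MNs. The difference was 4.71-fold (log2 ratio -2.24). Meis2 remained above 80.9% of all genes in A2 SMA MNs, against 97.8% in Hb9 control MNs, and so held the highest place of the 3 Meis genes in both.

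Meis3, the paralog known for its part in hindbrain patterning, lies on chromosome 7 between 16760439 and 16771859. The control MNs had 100.2 FPKM of it and the A2 SMA MNs 10.7 FPKM. The 9.40-fold difference (log2 ratio -3.23) was the widest among the 8 genes, and 3.49% of all genes had a lower log2 ratio. For Meis1 and Meis2 that share was 4.42% and 7.38%.

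Pbx3 encodes a Hox partner needed in mice for the hindbrain control of breathing, and lies on chromosome 2 between 34026977 and 34228660. Control MNs showed 61.1 FPKM and A2 SMA MNs 15.6 FPKM, a 3.92-fold difference (log2 ratio -1.97). Pbx4, a less studied member that is best known from testis, lies on chromosome 8 between 72356412 and 72397062 and was at 19.0 and 8.40 FPKM. Its 2.26-fold difference (log2 ratio -1.17) was 1.85-fold relative to the median gene, below the 2-fold limit.

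Pbx2 is a broadly expressed member whose row, on chromosome 17 between 34726751 and 34734345, also carries the symbol of Gpsm3, a regulator of G-protein signalling. The row had 149 FPKM in the control against 108 FPKM in A2 SMA MNs, and the share of each gene in it is unknown. The log2 ratio was -0.47 (1.38-fold), or -0.18 relative to the median gene. By either measure the row stayed within 2-fold, and it stood above 95.3% of all genes in Hb9 control and 93.2% in A2 SMA MNs.

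Pknox1, also called Prep1, encodes a broadly expressed partner that binds PBX away from DNA as well as on it. It lies on chromosome 17 between 31701694 and 31744625 and had the lowest level of the 8 in Hb9 control MNs, 13.4 FPKM, against 11.3 FPKM in A2. A log2 ratio of -0.25 placed it close to the median gene and became 0.04 relative to it, and 52.0% of all genes had a lower ratio. Pknox2, a paralog with a more restricted expression, lies on chromosome 9 between 36697550 and 36954899. It had 32.7 FPKM in the control and 7.93 FPKM in A2 SMA MNs, a 4.12-fold difference (log2 ratio -2.04). The 2 Pknox genes, whose homeoboxes share 78.3% of their bases, thus stood apart, one near the median gene and the other more than 4-fold lower.

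**Figure D2:**
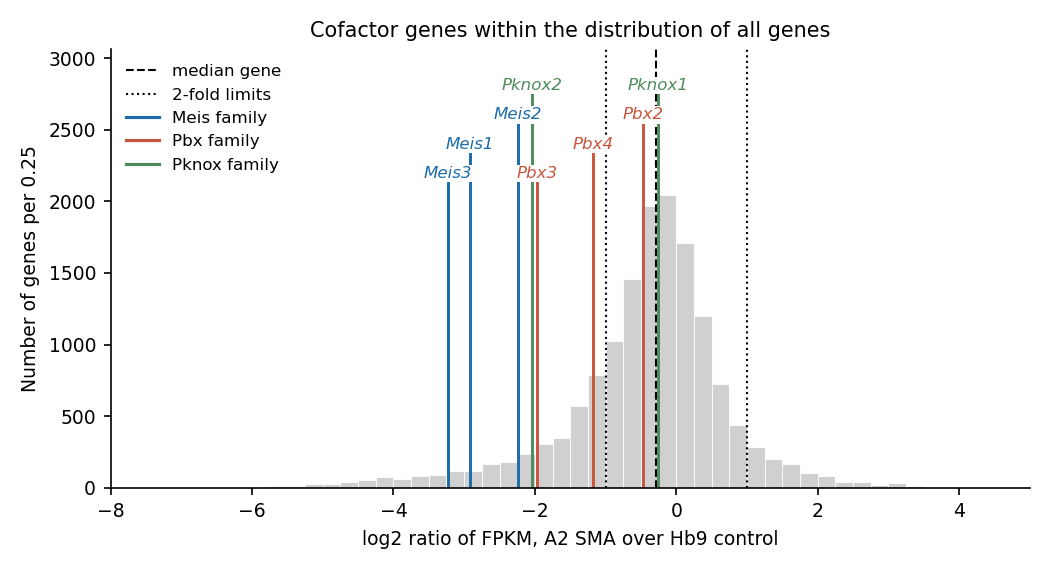
Number of genes (14926 in all) in steps of 0.25 of the log2 ratio of FPKM, A2 SMA over Hb9 control, with a coloured line at each cofactor gene, a dashed line at the median gene and dotted lines at the 2-fold limits. The Meis genes, Pbx3 and Pknox2 lie in the left tail, between -3.23 and -1.97, and Pknox1 lies next to the median gene.

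Since FPKM is per length of transcript, levels of the 8 genes can be set side by side within a genotype, and such an order does not depend on the scaling between genotypes. In Hb9 control MNs the order from the top was Meis2, the Pbx2 row, Meis1, Meis3, Pbx3, Pknox2, Pbx4 and Pknox1, with a 16.8-fold range. In A2 SMA MNs it was the Pbx2 row, Meis2, Meis1, Pbx3, Pknox1, Meis3, Pbx4 and Pknox2, with a 13.6-fold range. Of the 28 pairs, 6 had the opposite order in the other genotype, but in 2 of these, Meis3 with Pknox1 and Pknox2 with Pbx4, the A2 SMA values were nearly level. Meis3 was 7.46 times as high as Pknox1 in Hb9 control MNs and 0.946 times as high in A2 SMA MNs, and Pknox2 went from 2.44 times to 0.704 times the level of Pknox1. Meis2 was 1.52 times as high as the Pbx2 row in Hb9 control MNs and 0.445 times as high in A2 SMA MNs. With no spread between samples, such close neighbours as Pbx4 and Pknox2 in A2 SMA MNs (8.40 and 7.93 FPKM) or Pknox1 and Meis3 (11.3 and 10.7 FPKM) cannot be ranked against each other.

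Summed by family, the 3 Meis genes made up 464 FPKM in the control and 76.8 FPKM in A2 SMA MNs, a 6.04-fold difference. The sum of the 3 Pbx genes was 229 and 132 FPKM (1.74-fold), and that of the 2 Pknox genes 46.1 and 19.2 FPKM (2.40-fold). The Meis genes thus held 62.8% of the summed level of the 8 genes in Hb9 control MNs and 33.7% in A2 SMA MNs, and the Pbx genes 31.0% and 57.8%. These values turn on the row that Pbx2 shares with Gpsm3. Without it, an alternative chosen after the values were seen, the Pbx sum was 3.33-fold lower in A2 SMA MNs, a wider difference than that of the Pknox sum, and the Meis genes held 78.6% and 64.0%, the Pbx genes 13.6% and 20.0%, and the Pknox genes 7.81% and 16.0%. The ratio of summed Meis to summed Pknox FPKM, which the row does not enter, was 10.1 in Hb9 control MNs and 4.0 in A2 SMA MNs. The sums cover only these 8 genes, and other genes of the families were not analysed here.

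**Figure D3:**
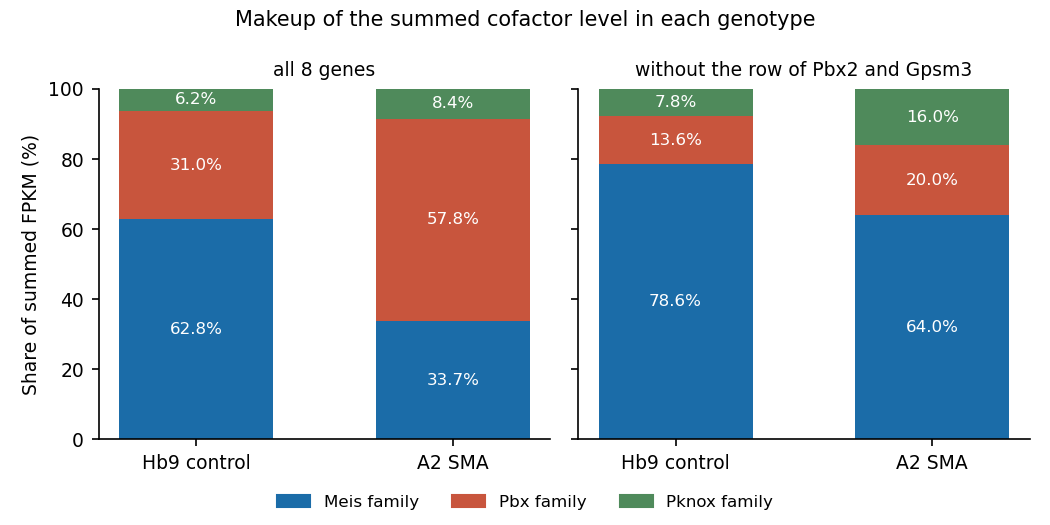
Share of the summed FPKM of the cofactor genes held by the Meis, Pbx and Pknox genes in each genotype, for all 8 genes (left) and without the row of Pbx2 and Gpsm3 (right). The Meis share is lower in A2 SMA than in Hb9 control MNs in both panels, 33.7% against 62.8% and 64.0% against 78.6%.

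Lists of genes that work with the cofactors or share their domain were set beside them. Each list was written with earlier results of these data known, and its counts are descriptions. Hox proteins are the best known partners of these cofactors. Of the rows of Hox genes in paralog groups 1 to 4 that reached 1 FPKM, 6 of 7 were at least 2-fold lower, and of groups 5 to 8, 6 of 8, with medians of -3.07 and -3.53. Of 15 rows of groups 9 to 13, 3 passed the filter and 2 of these were lower, 1 being a row of Hoxc5 and Hoxc10 already counted, and the median of -2.02 became -0.25 without the filter, where that of all genes was -0.31. The row of Hoxd3 and Hoxd4 went from 126 to 1.14 FPKM, and Hoxb5 from 69.0 to 4.22 FPKM.

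Other TALE homeobox genes do not serve as Hox cofactors in the same way. Of the 7 of them that passed the filter, 5 were at least 2-fold lower and Tgif1 was higher (4 and 1 relative to the median gene). The log2 ratios had a median of -1.48. Tgif1, a repressor that acts in TGFβ signalling, had 61.2 FPKM in the control and 147 FPKM in A2 SMA MNs. Irx1, a patterning factor of the Iroquois family, was at 18.3 and 0.890 FPKM, and the row of Irx2 was at 14.3 and 4.68 FPKM.

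Of 14 genes that regulate the cofactors or act with them as coregulators, none was past 2-fold in either direction, with log2 ratios from -0.97 to 0.05 and a median of -0.28, next to that of all genes. They include Ncor1, a corepressor (224 and 203 FPKM), Men1 (127 and 82.5 FPKM) and Psip1 (121 and 109 FPKM), both parts of the MLL complex that activates Meis1 in leukaemia, and Pbxip1, which binds PBX and hinders its activity (37.2 and 20.8 FPKM, named after its values were seen). Of 5 other homeodomain partners of PBX, 2 passed the filter, En1 at 1.70 and 0.164 FPKM and En2 at 1.85 and 1.47 FPKM.

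RA induces several Hox and cofactor genes, and of 14 genes of its pathway 10 were at least 2-fold lower in A2 SMA MNs, 1 was higher and 3 lay between (8 lower and 1 higher when set against the median gene), the list having a median of -1.56. Crabp1, which binds RA in the cytoplasm, was at 1134 and 88.3 FPKM. Rarg, a receptor, was the higher one, at 12.5 FPKM in Hb9 control and 65.5 FPKM in A2 SMA MNs, and was named after its value was seen. Of 9 listed factors of position along the body axis, 1 of them anterior, 6 passed the filter and 2 of these were at least 2-fold lower. Otx2, the anterior one, which acts in the forebrain and midbrain, was at 19.0 and 25.8 FPKM.

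**Figure D4:**
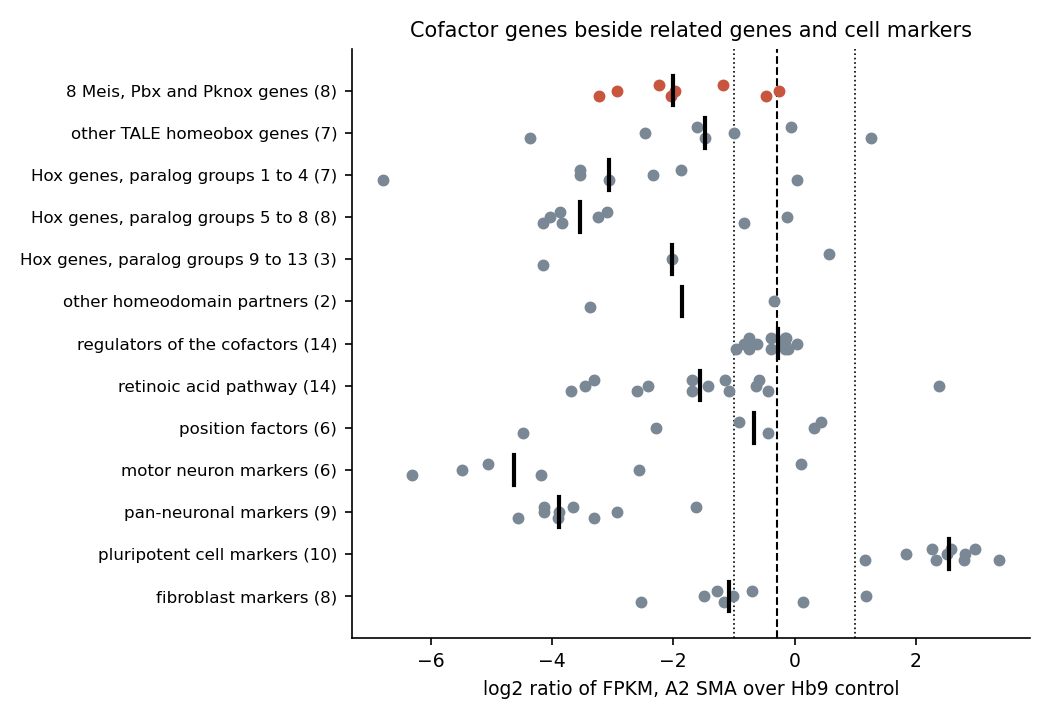
Log2 ratio of FPKM, A2 SMA over Hb9 control, of each row that passed the filter of 1 FPKM (points) in each list, with the list's median (bar), the median of all genes (dashed line), the 2-fold limits (dotted lines) and the number of rows in brackets. The cofactor median of -2.01 lies below the regulators of the cofactors (-0.28) and above that of the pan-neuronal markers (-3.88).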

How the data were processed

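Analysed here was the gene-level table of the RNA-Seq comparison of 3 Hb9 control and 3 A2 SMA samples. The authors checked reads with FastQC 0.10.1, trimmed them with cutadapt, mapped them to NCBI m37 with TopHat2 2.04 (versions from the submitters' processing notes) and derived FPKM with Cufflinks and Cuffdiff, and the FPKM values deposited by the authors are 1 pooled value per genotype. Libraries were made with the TruSeq RNA Sample Prep Kit, which does not mark strand. The table also holds the authors' fold changes, test statistics, p-values and a status, which were not used. Where the table gives symbols of several genes in 1 row, they share its value. Starts were raised by 1 to count from 1, and a position covers the whole locus of the row.

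The row of a symbol with the highest FPKM was taken. Log2 ratios were formed without a pseudocount over genes that reached 1 FPKM in 1 or both genotypes and were above 0 FPKM in each, each row counted once. A ratio of at least 2-fold was counted as lower or higher. The members and lists were chosen with earlier results of these data known. All members are named, and at most the 3 most abundant genes of each list, with exceptions stated. Values of some listed genes are not reported here. Kmt2a and Map2 were found under older symbols, and Slc18a3 and Tubb3 were not matched. Sequences came from GENCODE M21 and RefSeq (GRCm38) and were joined by symbol. Python 3.11.15, numpy 2.4.6, pandas 2.3.3 and matplotlib 3.10.9 were used, and the counting steps were tested on simulated data. The table does not carry the reads of single samples, so the depth and precision behind each pooled value were not computed.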

Additional observations from a re-analysis of the deposited data

How the results depend on the processing

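No paired analysis was possible because the table holds 1 pooled value per genotype, and for the same reason no sample could be left out. The count of cofactor genes at least 2-fold lower was 5 relative to the median gene and with upper quartile scaling, 4 at a 4-fold limit, and 6 with the other 2 scalings, either pseudocount and a 1.5-fold limit. Other filters, summed rows and leaving out the row of Pbx2 and Gpsm3 could not change that count. Their median log2 ratio ran from -2.06 (shares of summed FPKM) to -1.64 (upper quartile scaling). Pbx4 was at -0.88 relative to the median gene and at -0.81 with upper quartile scaling, both within 2-fold, and Pknox1 was above 0 with these 2 scalings, at up to 0.11. Of all genes, 8.88% were lower at the 4-fold limit and 35.4% at a 1.5-fold limit, where 6 cofactor genes were. The share of all genes at least 2-fold higher was 11.8% with upper quartile scaling and 4.28% with a pseudocount of 1 FPKM. Without the FPKM filter, the median of the other homeodomain partners of PBX turned from -1.85 to 0.27. That of the position factors went from -0.68 to 0.33. Leaving out the filter added 3 genes to each of these lists, all below 1 FPKM in both genotypes. Cuffdiff's own error estimates were not used, so how far any of these differences exceeds the spread between samples was not tested.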

Other observations

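The surroundings of the 8 genes were read from the same table, with genes named here after their values were seen. The nearest gene on each side of each cofactor gene was taken from those with at least 1 FPKM in either genotype, 16 in all. Of these 16, 6 were at least 2-fold lower in A2 SMA MNs and 1 was higher, with a median log2 ratio of -0.49. Relative to the median gene 5 were lower, and of all genes 22.4% were lower on the deposited scale. Of the 16 neighbours, 12 flank a cofactor gene that was itself at least 2-fold lower, among them the 6 lower ones. Of the lower neighbours, G630016G05Rik, 0.379 kb beyond Meis2, had 1.20 FPKM in the control and 0.0804 FPKM in A2 SMA MNs. Another, 8430419K02Rik, 6.12 kb from Meis1, was at 1.86 and 0.147 FPKM. Within the locus of Meis1, Gm16140 was at 2.67 and 0.0851 FPKM and Gm16141 at 2.95 and 0.175 FPKM, which is 1.93% and 2.13% of the level of Meis1 in Hb9 control MNs. The library kit does not mark strand, so reads of genes that overlap on opposite strands cannot be told apart. Fez1, beside Pknox2, was at 121 and 8.57 FPKM.

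As a description of likeness, the nearest of 124 listed genes was found by the distance between their log2 FPKM over the 2 pooled values. For Pbx4 it was Col1a2 (distance 0.12). For Pbx2 it was Psip1 (0.30), for Pknox1 Cyp26a1 (0.33), for Meis3 the row of Hoxb3 and Hoxb4 (0.42), for Pknox2 Stra6 (0.43) and for Meis1 Map2 (0.74). With 2 values per gene, such likeness carries no more than the levels themselves.

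RefSeq bases before the start (GRCm38) were at hand for 5 of the 8 genes, Meis1, Meis2, Meis3, Pbx2 and Pbx4. In the 250 bases before the start none of them holds TGATNNAT, a site of PBX with Hox proteins, TGACAG, a site of MEIS and PKNOX proteins, or AGGTCA, a half-site of RA receptors, on either strand. Of 32851 such windows of all genes, 7.68%, 15.9% and 14.0% hold these letters.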
